A study of Mus musculus with 24 samples.

Results

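The 10 genes described here encode acute-phase proteins, plasma proteins that the liver secretes in larger or smaller amounts during inflammation and injury. They were chosen by name: the serum amyloid A genes Saa1, Saa2 and Saa3, the orosomucoid genes Orm1, Orm2 and Orm3, lipocalin 2 (Lcn2), haptoglobin (Hp), hemopexin (Hpx) and serum amyloid P (Apcs). Each symbol matched 1 row of the deposited count table, so they make up 10 of its 56205 genes. All 10 were among the 17913 genes that passed the filter on low counts, at least 1 count in at least 12 libraries. Poly(A) RNA of whole liver from C57BL/6J mice was sequenced in 24 libraries. Of these, 12 came from mice kept for 20 weeks on a high-fat diet and 12 from mice kept for the same time on a control diet. The study's methods give the fat source of the high-fat diet as palm oil, with added fructose and cholesterol, and list a control diet made to match it, which the labels call chow. No allele, transgene or drug distinguished the groups. The study used 6 mice per diet and sex, and the labels do not state which library came from which sex.

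In the acute-phase response, cytokines made by macrophages and other cells act on hepatocytes. IL-6 and related cytokines signal through the shared receptor Il6st and the transcription factor STAT3, and IL-1 and TNF signal through NF-kB. C/EBP factors act with both at the promoters of many acute-phase genes. Transcripts of the positive acute-phase proteins then rise, while those of negative acute-phase proteins such as albumin and transthyretin fall. Serum amyloid A proteins bind high-density lipoprotein, orosomucoids carry small molecules, and lipocalin 2 withholds iron from bacteria by binding their siderophores. Haptoglobin and hemopexin capture free hemoglobin and heme. Serum amyloid P, a pentraxin, is the classical pentraxin of the acute phase in mice. Neutrophils also hold lipocalin 2, and macrophages and adipocytes are known sources of Saa3, so in whole liver these transcripts need not come from hepatocytes alone.

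Depth ranged from 14468418 to 22112552 counts on genes per library. Levels are given as CPM, counts per 1000000 of the library total after TMM scaling, which corrects the totals for composition. A gene was called higher or lower where edgeR's quasi-likelihood test gave an adjusted p no larger than 0.01 and the log2 fold change exceeded 0.5 in size. In replicates 1 to 6 of both diets the X-linked transcript Xist had more than 1000 counts and in replicates 7 to 12 fewer, which gives 6 libraries per diet in each set. The Y-linked transcript Ddx3y had 0 counts in every library with Xist above 1000 and 448 to 1016 in those below. The sets thus divide the libraries as female and male mice would. They are not conditions of the labels, and values within them are given where they bear on a result. High-fat diet replicate 3 stood apart. It held the highest level among the 12 high-fat diet libraries for all 10 genes, whereas 15.5% of all genes tested had their highest value there. The summed level of 12 neutrophil markers was 324 CPM in that library, against 6.86 to 16.2 in the other 11 high-fat diet libraries and 1.84 to 8.07 on the control diet. The summed level of 7 erythroid markers was 5283 CPM there and at most 704 in the other high-fat diet libraries. Hepatocyte markers were also highest of the diet there, at 94031 CPM against at most 87340 in the others and a control median of 96302. Markers of stellate cells and cholangiocytes were lowest of the diet, at 415 and 47.2 CPM, with control medians of 268 and 58.9. Markers of monocytes and their macrophages were lowest too, those of sinusoidal endothelium highest, and Kupffer cell and adipocyte markers lay between. The diet differences of the 10 genes are therefore also given without high-fat diet replicate 3. Control replicates 12 and 7 had the highest Saa1 and Saa2 of the control libraries, and control replicate 10 had the fewest counts and the highest Orm1 and Hpx of its diet. Control replicate 10 also had the lowest TMM factor of the 24 libraries, 0.679, which raises the CPM of every gene in it. Without that factor its Orm1 was still the highest of its diet, but control replicate 6 had more Hpx.

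**Figure D1:**
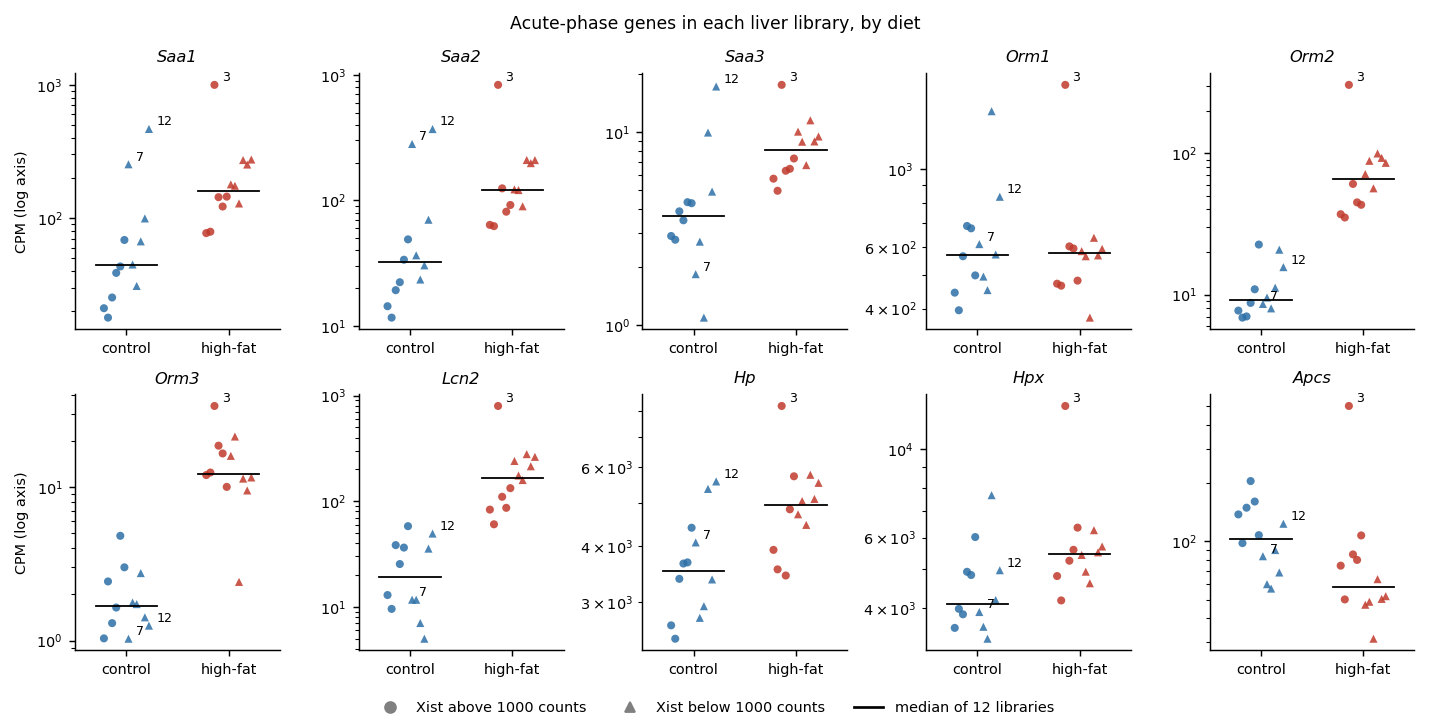
Level of each of the 10 genes in each library, in CPM on a log axis, for 12 control diet and 12 high-fat diet libraries. Circles are libraries with Xist above 1000 counts, triangles those below, and the lines are medians. The labels mark high-fat diet replicate 3, which is the highest point on its diet in every panel, and control replicates 7 and 12. Orm2 and Lcn2 are the genes whose diets do not overlap.

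Of the 10 genes, 3 were called higher on the high-fat diet, Orm2, Orm3 and Lcn2, where 13.2% of all genes tested were called higher. None was called lower by edgeR, DESeq2 or limma-voom, where edgeR called 4.99% of all genes lower. At an unadjusted p under 0.05, 8 of the 10 were above 0 and 0 below, in each of these 3 tools. Of all genes, 24.1% were above 0 and 23.7% below at that level in edgeR, 25.1% and 23.3% in DESeq2, and 24.6% and 22.6% in limma-voom. The other 5 at that level were Saa1, Saa2, Saa3, Hp and Hpx, which missed the threshold in adjusted p, in size or in both. The 10 genes together held 0.632% to 1.13% of the counts of a control library (median 0.804%) and 0.877% to 2.62% of a high-fat diet library (median 1.32%), with high-fat diet replicate 3 at the top. Fewer cells of a type and less RNA per cell cannot be told apart in RNA of whole liver.

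The order of the genes by level was compared per kilobase of the longest coding transcript in GENCODE M21. In the control libraries the medians ran from 2725 CPM per kilobase for Hpx and 2615 for Hp through 732 for Orm1 to 1.68 for Saa3. On the control diet Apcs, at 106 CPM per kilobase, lay above Saa1 at 72.4, Saa2 at 49.2, Lcn2 at 21.0 and Orm2 at 11.8. On the high-fat diet it lay below them, at 59.6 CPM per kilobase against 262, 187, 182 and 85.1. This order depends on the length used. Per kilobase of all exons in GENCODE M21, Apcs on the high-fat diet lay above Saa2, at 59.6 against 48.3. It then lay below Saa1, Lcn2 and Orm2, at 64.5, 63.6 and 85.1. Hp and Hpx were the most abundant on both diets, and Saa3 the least.

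The orosomucoid genes lie side by side on chromosome 4 (GRCm38, GENCODE M21), Orm1 (ENSMUSG00000039196) from 63344560 to 63348163, Orm3 (ENSMUSG00000028359) from 63356162 to 63359511 and Orm2 (ENSMUSG00000061540) from 63362449 to 63365878, all on the plus strand. Their coding transcripts are near copies. Orm1 and Orm2 were identical at 91.0% of aligned positions, Orm2 and Orm3 at 88.3% and Orm1 and Orm3 at 86.4%. The stretches of sequence upstream of Orm2 and Orm3 are shown because both transcripts were called higher by similar amounts. They are the 150 bases before the start site in RefSeq (GRCm38.p6), chr4:63362299-63362448 for Orm2 and chr4:63356008-63356157 for Orm3, both on the plus strand. Capitals mark matches to the C/EBP motif TTNNGNAA on either strand.
Orm2: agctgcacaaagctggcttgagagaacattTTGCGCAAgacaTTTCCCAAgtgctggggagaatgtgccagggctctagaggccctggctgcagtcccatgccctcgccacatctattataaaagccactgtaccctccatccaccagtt
Orm3: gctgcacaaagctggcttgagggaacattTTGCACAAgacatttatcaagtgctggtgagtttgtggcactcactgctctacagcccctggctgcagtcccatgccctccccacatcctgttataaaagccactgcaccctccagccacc
Over the whole windows of 300 bases, 250 before the start and 50 after it, the promoters of Orm2 and Orm3 were identical at 86.6% of aligned positions. Orm2 had a pair of C/EBP matches, of which Orm3 shared the first.

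Orm2, an orosomucoid of low basal level in these livers, ran from 6.88 CPM through a median of 9.15 to 22.6 in the control libraries. On the high-fat diet it ran from 35.1 through 65.9 to 304. Every high-fat diet library lay above every control library, a separation found for 1.48% of all genes tested. The log2 fold change of Orm2 was 2.89 (adjusted p = 6.33e-07 in edgeR's quasi-likelihood test, standard error 0.32), a 7.39-fold rise. Leaving out high-fat diet replicate 3 gave 2.50 (adjusted p = 7.94e-08, the same test), where 13.5% of all genes were called higher. The rise of Orm2 was 3.04 in the libraries with Xist above 1000 counts, 2.06 there without high-fat diet replicate 3, and 2.76 in those below, and the diets did not overlap in either set, as for 3.51% and 12.6% of all genes tested.

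Orm3 was the lowest of the orosomucoids, with 1.03 to 4.81 CPM on the control diet (median 1.68) and 2.41 to 33.8 on the high-fat diet (median 12.2). All but 1 of the high-fat diet libraries lay above every control library, and the exception, replicate 9 at 2.41 CPM, lay among them. Orm3 had a log2 fold change of 2.86 (adjusted p = 4.19e-07 in the same test, standard error 0.31), a 7.28-fold rise, and 2.68 without high-fat diet replicate 3. It was 2.88 in the libraries with Xist above 1000 counts and 2.90 in those below. Replicate 9 also held the lowest Orm1 CPM of the 24 libraries, and the largest TMM factor, 1.34, which lowers its CPM. Without that factor several control libraries had less Orm1.

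Orm1, the orosomucoid with most of the family's counts, did not follow its neighbours. It ran from 395 through a median of 567 to 1463 CPM on the control diet and from 377 through 575 to 1739 on the high-fat diet. The diets overlapped almost fully, and their highest libraries, control replicate 10 and high-fat diet replicate 3, stood well above the rest. The diet difference of Orm1 was -0.0034 on the log2 scale (95% interval -0.44 to 0.43, standard error 0.22, adjusted p = 0.991). Leaving out high-fat diet replicate 3 gave -0.25, and without control replicate 10 it was 0.18, with neither called.

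The share of each gene within the family does not depend on how the libraries were scaled. Orm2 held 0.759% to 4.32% of all orosomucoid counts in the control libraries and 6.85% to 14.6% on the high-fat diet. The mean share went from 1.91% ± 1.01 to 10.7% ± 2.99 (SD, n = 12 per diet). The difference of 8.82 percentage points had p = 2e-05 in a two-sided permutation test with 100000 resamples, the smallest p it can give (adjusted p = 3e-05 over 3 such tests), and in all 12 high-fat diet libraries the share exceeded that of every control library. Orm3 went from 0.335% ± 0.187 to 2.02% ± 0.709 (SD, n = 12 per diet), with the same p-values and 11 of 12 high-fat diet libraries above every control library. When the counts of the 3 genes were summed, the log2 fold change of the sum was 0.18 (adjusted p = 0.569, edgeR's quasi-likelihood test), since Orm1 made up 95.1% to 99.1% of the sum on the control diet and 83.7% to 90.7% on the high-fat diet. Of the windows of 51 bases in their transcripts, 20.0% in Orm1, 22.2% in Orm2 and 3.46% in Orm3 also occur in another gene, mostly an orosomucoid, so the split of reads among them carries an uncertainty that the counts do not show.

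**Figure D2:**
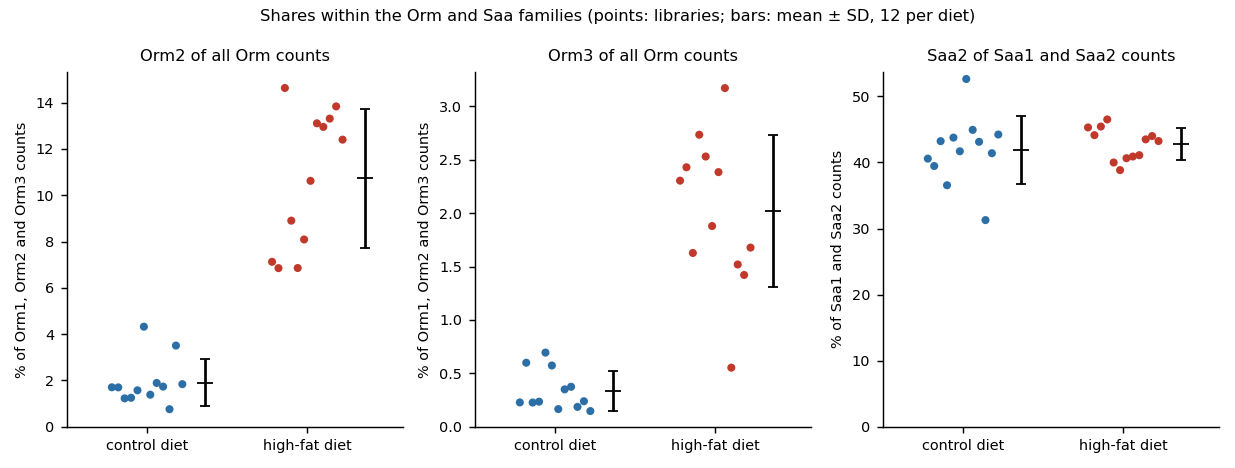
Shares of Orm2 and Orm3 in the counts of the 3 orosomucoid genes, and of Saa2 in the counts of Saa1 and Saa2, in percent, for each library by diet; bars are the mean ± SD of 12 libraries. The Orm2 shares of the diets do not overlap, 1 high-fat diet library has an Orm3 share among the control libraries, and the Saa2 shares overlap throughout.

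Lcn2 (ENSMUSG00000026822; chromosome 2, 32384633 to 32388252, minus strand), the siderophore-binding lipocalin, showed the largest difference of the 10 genes over all 24 libraries. It ran from 4.99 through a median of 19.2 to 58.0 CPM on the control diet and from 60.5 through 167 to 798 on the high-fat diet. The lowest high-fat diet library, replicate 2, lay just above the highest control library, replicate 6, so the diets did not overlap. Every high-fat diet library was above every control library for 1.48% of all genes tested. The log2 fold change of Lcn2 was 3.11 (adjusted p = 8.84e-06 in edgeR's quasi-likelihood test, standard error 0.44), an 8.63-fold rise. It was 2.82 in the libraries with Xist above 1000 counts (adjusted p = 0.00923) and 3.48 in those below (adjusted p = 9.65e-05, the same test for both). In the set above 1000 counts Saa1, Orm3, Orm2 and Saa2 had larger values, from 2.87 to 3.07. Lcn2 is also a product of neutrophils, and of the 11 neutrophil markers tested 10 were called higher by edgeR, 5 by DESeq2 and 2 by limma-voom. Without high-fat diet replicate 3, where those markers peaked, edgeR called 4 neutrophil markers and the log2 fold change of Lcn2 was 2.71 (adjusted p = 7.62e-06, the same test). In the libraries with Xist above 1000 counts it was 1.67 without that library (adjusted p = 0.00441, the same test). None of the windows of 51 bases in Lcn2 occurs in another gene.

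The serum amyloid A genes lie within 1 cluster on chromosome 7. Saa3 (ENSMUSG00000040026) spans 46711998 to 46715700 and Saa1 (ENSMUSG00000074115) 46740497 to 46742980, both on the minus strand, and Saa2 (ENSMUSG00000057465) spans 46751790 to 46754313 on the plus strand. The coding transcripts of Saa1 and Saa2 were identical at 87.3% of aligned positions and their promoter windows at 95.3%. Their upstream sequences are shown because the transcripts moved in step from library to library. They come from RefSeq (GRCm38.p6), chr7:46742981-46743130 on the minus strand for Saa1 and chr7:46751640-46751789 on the plus strand for Saa2, and end 1 base before the start of the GENCODE M21 gene model. Capitals again mark the C/EBP motif TTNNGNAA on either strand.
Saa1: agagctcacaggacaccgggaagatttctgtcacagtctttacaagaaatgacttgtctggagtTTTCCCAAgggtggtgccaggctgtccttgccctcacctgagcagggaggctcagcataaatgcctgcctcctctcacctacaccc
Saa2: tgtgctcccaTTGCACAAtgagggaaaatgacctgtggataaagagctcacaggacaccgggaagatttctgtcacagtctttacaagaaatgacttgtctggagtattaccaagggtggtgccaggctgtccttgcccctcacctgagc
The match nearer to the start of Saa1 has no counterpart in Saa2, whose only match lay farther upstream. Saa1 also had a match there, outside the stretch shown.

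Saa1, the major lipoprotein-bound serum amyloid A of mice together with Saa2, ran from 17.9 through a median of 44.1 to 466 CPM on the control diet. On the high-fat diet it ran from 77.2 through 160 to 998. Each of the 12 high-fat diet libraries exceeded the control median, but control replicates 12, 7 and 11, at 466, 253 and 99.4 CPM, lay within the high-fat diet range. The log2 fold change of Saa1 was 1.27 (standard error 0.52, 95% interval 0.26 to 2.29) with an adjusted p of 0.0520, so it was not called. The value changed with the terms of the fit. With 1 surrogate variable it was 1.67 (adjusted p = 0.00685), and Saa1 was called. With the library set as a covariate it was 1.63 (adjusted p = 0.0164), and Saa1 was not called. The value also depended on single libraries at either end. It was 0.78 without high-fat diet replicate 3 (adjusted p = 0.187) and 1.88 without control replicate 12 (adjusted p = 0.00255), where it was called and 12.7% of all genes were called higher.

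Saa2 behaved like Saa1, with 11.7 to 370 CPM on the control diet (median 32.1) and 62.4 to 831 on the high-fat diet (median 122). Its log2 fold change was 1.20 (standard error 0.57, 95% interval 0.09 to 2.31, adjusted p = 0.0950). When high-fat diet replicate 3 was left out it was 0.64 (adjusted p = 0.330), and without control replicate 12 it was 1.77 (adjusted p = 0.0103). The same control libraries, replicates 12, 7 and 11 at 370, 281 and 70.2 CPM, lay within the high-fat diet range. The share of Saa2 in the counts of both genes was 41.9% ± 5.10 on the control diet and 42.8% ± 2.44 on the high-fat diet (SD, n = 12 per diet), a difference of 0.894 percentage points (two-sided permutation test, p = 0.595). Of the windows of 51 bases, 14.3% in Saa1 and 8.80% in Saa2 also occur in another serum amyloid A gene. The split of reads between Saa1 and Saa2 therefore carries an uncertainty that the counts do not show.

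Saa3, the serum amyloid A of macrophages and adipose tissue, was low in all livers. It ran from 1.09 through a median of 3.70 to 17.3 CPM on the control diet and from 4.98 through 8.13 to 17.6 on the high-fat diet. Each high-fat diet library exceeded the control median, and control replicates 12 and 10, at 17.3 and 9.98 CPM, lay within the high-fat diet range. The diet difference of Saa3 was 0.83 on the log2 scale (95% interval 0.20 to 1.46, standard error 0.32, adjusted p = 0.0422), short of the threshold. It was 1.20 without control replicate 12 (adjusted p = 0.000932) and 0.69 without high-fat diet replicate 3 (adjusted p = 0.0858). All 10 markers of monocytes and monocyte-derived macrophages were called higher on the high-fat diet. Their summed level was lowest of the 12 high-fat diet libraries in replicate 3, at 317 CPM, where Saa3 was highest, and their part in the levels of Saa3 was not tested. In limma-voom, Saa1, Saa2 and Saa3 were called higher, with log2 fold changes of 1.65, 1.71 and 1.17, where 13% of all genes were. Parts of the Saa3 transcript, 3.77% of its windows of 51 bases, occur in 201 other genes.

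The serum amyloid A genes were also compared within the sets of libraries. With Xist above 1000 counts, the control libraries held 17.9 to 68.5 CPM of Saa1 and the high-fat diet libraries 77.2 to 998, so the diets did not overlap. The same held for Saa2 and Saa3 in that set, as for 3.51% of all genes tested. There the log2 fold change was 2.87 for Saa1 (adjusted p = 0.00701) and 3.07 for Saa2 (adjusted p = 0.00661), both called, and 1.17 for Saa3 (adjusted p = 0.0115), where 2.91% of genes were called higher. When high-fat diet replicate 3 was left out these values were 1.67, 1.77 and 0.78, and all 3 were called (adjusted p = 0.00124, 0.00103 and 0.00350), where 3.85% of genes were called higher. With Xist below 1000 counts, the set that holds control replicates 7, 10 and 12, the values were 0.42 for Saa1 (adjusted p = 0.570), 0.24 for Saa2 (adjusted p = 0.792) and 0.60 for Saa3 (adjusted p = 0.375), none of them called, where 14.3% of all genes were called higher.

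Whether the diet differences themselves differed between the sets was tested across all genes with an interaction term in edgeR. At an adjusted p of at most 0.05, 0 of the 10 genes passed, where 10.2% of all genes tested did. The largest interactions were those of Saa1 and Saa2. Their diet differences were lower by 2.45 (adjusted p = 0.0732) and 2.83 (adjusted p = 0.0562) on the log2 scale in the libraries with Xist below 1000 counts. In limma-voom the same interactions were -1.28 and -1.46 (adjusted p = 0.355 and 0.330). Leaving out high-fat diet replicate 3, where 11.4% of all genes passed in edgeR, the interaction of Saa1 was -1.25 (adjusted p = 0.260). The largest was then that of Lcn2, whose diet difference was larger by 1.81 below 1000 counts (adjusted p = 0.0649).

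**Figure D3:**
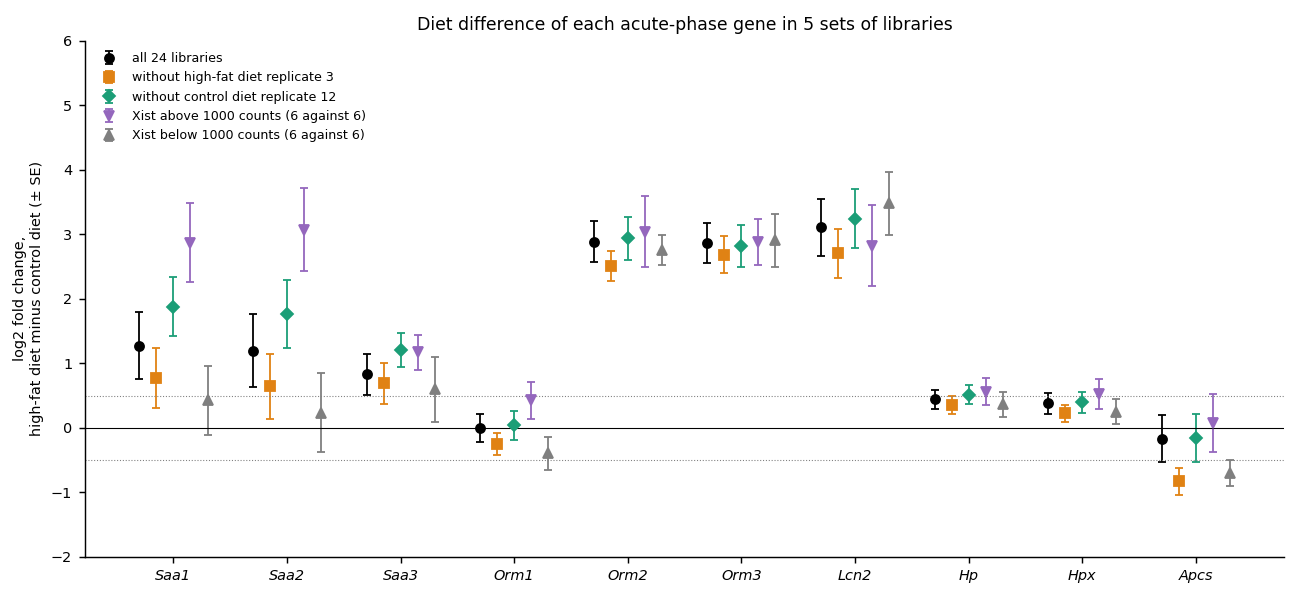
Log2 fold change (high-fat diet minus control diet) of each gene with its standard error, from all 24 libraries, without high-fat diet replicate 3, without control replicate 12, and within the libraries with Xist above or below 1000 counts. Dotted lines mark 0.5 and -0.5. Orm2, Orm3 and Lcn2 stay above 2 in all 5, Saa1 and Saa2 spread from 0.24 to 3.07, and Apcs lies near 0 only where high-fat diet replicate 3 is included.

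The proteins that bind hemoglobin and heme were abundant on both diets. Hp (ENSMUSG00000031722; chromosome 8, 109575128 to 109579172, minus strand), which carries free hemoglobin to macrophages, ran from 2483 through a median of 3517 to 5575 CPM on the control diet and from 3437 through 4936 to 8220 on the high-fat diet. Of the 12 high-fat diet libraries, 11 lay above the control median and 3 above every control library. Its log2 fold change was 0.44 (standard error 0.15, 95% interval 0.15 to 0.73, adjusted p = 0.0197), a 1.36-fold difference that was not called. Leaving out high-fat diet replicate 3 gave 0.36 (adjusted p = 0.0409). Hp was called higher without control replicate 12 (0.51, adjusted p = 0.00719) or control replicate 10 (0.50, adjusted p = 0.00656), and 13.2% of all genes were called higher in the latter fit. Hpx (ENSMUSG00000030895; chromosome 7, 105591613 to 105600137, minus strand), which carries free heme, ran from 3352 through 4085 to 7659 CPM on the control diet and from 4178 through 5471 to 12802 on the high-fat diet. All 12 high-fat diet libraries exceeded the control median, but only replicate 3 exceeded every control library. Its log2 fold change was 0.38 (standard error 0.16, 95% interval 0.06 to 0.70, adjusted p = 0.0646), and 0.22 without high-fat diet replicate 3. These values depend on the scaling. With library totals in place of TMM, which moved the median log2 fold change of all genes from -0.03 to 0.26 and the share of calls that were higher from 72.6% to 94.4%, Hp was at 0.76 and Hpx at 0.68, and both were called, where 21.4% of all genes were called higher.

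Apcs (ENSMUSG00000026542; chromosome 1, 172893961 to 172895041, minus strand) encodes the pentraxin of the group, and its level was lower on the high-fat diet in most libraries. It ran from 56.9 through a median of 103 to 204 CPM on the control diet and from 31.4 through 57.9 to 499 on the high-fat diet. In 10 of the 12 high-fat diet libraries it lay below the control median, and in 6 below every control library, while replicate 3 held the highest value of all 24 libraries. The log2 fold change of Apcs was -0.17 (standard error 0.36, 95% interval -0.88 to 0.54, adjusted p = 0.739). Without high-fat diet replicate 3 it was -0.83 (adjusted p = 0.00317 in edgeR's quasi-likelihood test, standard error 0.21), and Apcs was called lower, where 5.61% of all genes were. In the libraries with Xist above 1000 counts it was 0.08 with that library and -0.83 without it (adjusted p = 0.00808), which was called, where 1.46% of genes were called lower. In those below 1000 counts, which never held it, the log2 fold change was -0.70 (adjusted p = 0.0114), just short of a call. There 5 of 6 high-fat diet libraries lay below every control library of the set. This separation depends on the scaling. In that set TMM factors ran from 1.12 to 1.34 on the high-fat diet, which lowers CPM, and from 0.679 to 0.956 on the control diet. Without the factors most of these high-fat diet libraries still lay below the set's control median, but most lay within its control range. Over all libraries, fewer than 6 then lay below every control library. With library totals alone the log2 fold change over all libraries, replicate 3 included, was 0.05. The diet difference outside that library was not tested with library totals.

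The sequence before the start of Apcs is shown for contrast with the C/EBP matches above. It covers chr1:172895055-172895204 on the minus strand (RefSeq, GRCm38.p6), the 150 bases before the start site.
Apcs: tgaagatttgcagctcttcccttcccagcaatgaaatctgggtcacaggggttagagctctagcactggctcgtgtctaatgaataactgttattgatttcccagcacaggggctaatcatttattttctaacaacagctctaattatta
RefSeq promoter windows of 300 bases were matched for 8 of the 10 genes, all but Orm1 and Hp. The C/EBP motif TTNNGNAA occurred on either strand in 7 of them, all but that of Apcs, and in 40.7% of 32851 promoter windows. The match of Lcn2 lay inside its GENCODE M21 gene model, in an exon of a longer isoform, and not upstream of the gene. The STAT motif TTCNNNGAA occurred in 1, that of Apcs, farther upstream than the stretch shown, from base -244 to base -236, and in 8.30% of all windows. The NF-kB motif, GGG, any 2 bases, TT, any base and CC, occurred in 0 of the 8 and in 4.79% of all windows. No match of the different motifs overlapped another. These are matches of letters and not measured binding.

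To see whether the 10 genes moved together among mice of the same diet, levels were taken as log2(CPM + 1) and the mean of each set of libraries was subtracted. Pearson's r and Spearman's rho of Saa1 with the other 9 genes on both diets formed a family of 36, with p-values from permutations within sets adjusted over the family. On the high-fat diet, r with Saa1 was 0.99 for Saa2 (p = 5e-05, adjusted 0.00072), 0.97 for Lcn2 (p = 0.00033, adjusted 0.00115), 0.97 for Orm2 (p = 0.00035, adjusted 0.00115) and 0.97 for Apcs (permutation p = 1e-04, adjusted 0.00072). For these 4 genes rho was 0.94, 0.93, 0.84 and 0.92. Replicate 3 carried part of these relations but not all of them. Without it and replicate 1, the libraries farthest from the median of Saa1, r was 0.95 for Saa2, 0.87 for Lcn2, 0.82 for Orm2 and 0.90 for Apcs, with permutation p-values of 0.00019, 0.00227, 0.00664 and 0.00033. The relations of Saa1 with Hp (r from 0.86 to 0.57, permutation p = 0.0747) and with Orm3 (r from 0.56 to 0.37, permutation p = 0.367) missed a p of 0.05 without them. Among the 6 high-fat diet replicates numbered 7 to 12, which include neither, r of Saa1 with Hp was 0.91 (exact permutation p = 0.0111). Within the 6 high-fat diet libraries of either set, r with Apcs was 0.98 and 0.88 (exact permutation p = 0.00833 and 0.0139). Thus Apcs, which was lower on the high-fat diet outside replicate 3, was higher in those high-fat diet libraries of a set that had more Saa1. Among replicates 7 to 12 of this diet, replicate 9 was the lowest for all 10 genes. It had the largest TMM factor of the 24 libraries, 1.34, which lowers the CPM of every gene in it. The part of this scaling in the correlations was not tested, and no share over all genes stands beside them.

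On the control diet Saa1 moved with Saa2 (r = 0.97, permutation p = 4e-05, adjusted 0.00072; rho = 0.98), with Hp (r = 0.74, adjusted p = 0.0328; rho = 0.73) and with Lcn2 (r = 0.70, adjusted p = 0.0393; rho = 0.73). Its relation with Orm2 gave r = 0.53 (permutation p = 0.0697, adjusted 0.0930) over all 12 libraries. Without replicates 12 and 7, the libraries farthest from the median of Saa1, r with Orm2 was 0.92 (permutation p = 0.00021). These were the control libraries with 466 and 253 CPM of Saa1 and only 15.7 and 8.60 CPM of Orm2. Their Orm3 was 1.25 and 1.03 CPM, among the lowest of the control libraries, and their Lcn2, at 49.4 and 11.7 CPM, lay within the range of the others. The neutrophil markers summed to 2.83 and 2.11 CPM there, below the control median of 3.76. Whether the correlations differ between the diets was not tested.

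**Figure D4:**
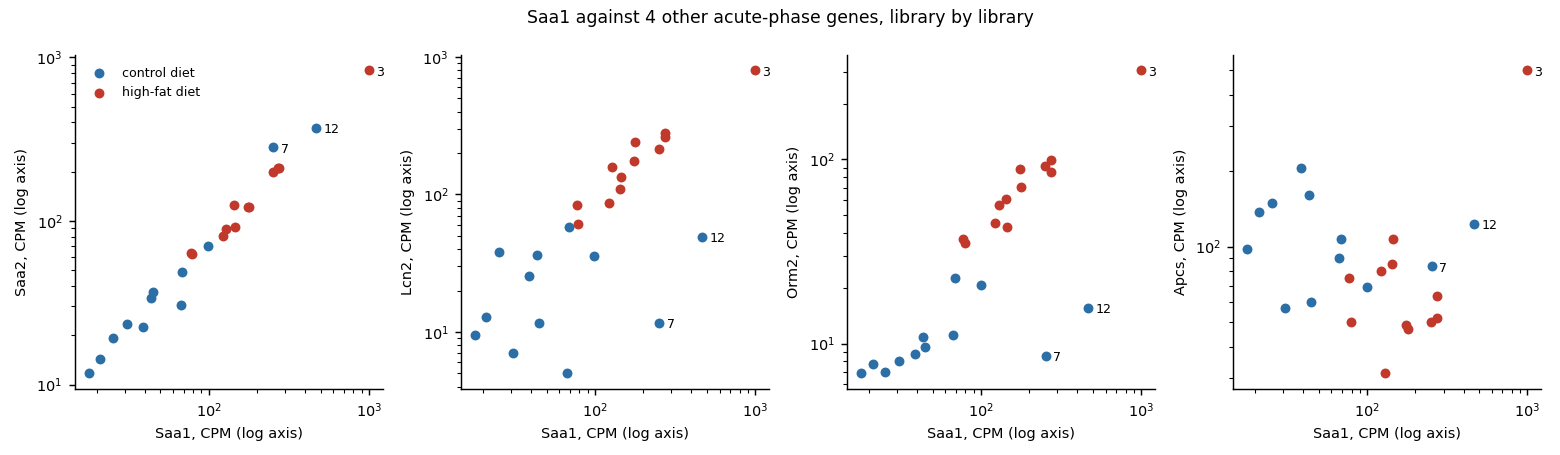
Level of Saa2, Lcn2, Orm2 and Apcs against that of Saa1 in each library, in CPM with log axes, for 12 control diet (blue) and 12 high-fat diet (red) libraries. Saa2 follows Saa1 across both diets. Control replicates 7 and 12 have Saa1 levels like the high-fat diet libraries and Orm2 and Lcn2 levels like the other control libraries, and high-fat diet replicate 3 is at the top of every panel.

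The genes whose levels were most like those of Lcn2 and Saa3 were taken from 13916 genes by Pearson's r over the 24 libraries, after the mean of each diet and set had been subtracted. For Lcn2 they were Slc18a2 (r = 0.84), Cd300lf (0.84), Orm2 (0.83), Saa1 (0.82) and Saa2 (0.81). Only Slc18a2 was still among the nearest 5 without high-fat diet replicate 3, with Prss23 (0.85) in first place. For Saa3 they were Gm6158 (0.79), Trmt112-ps2 (0.78), Stk19 (0.77), Hp (0.76) and Lrg1 (0.75), of which Gm6158 and Trmt112-ps2 remained without that library. These values describe the likeness of levels in these libraries and carry no test.

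Of 34 other positive acute-phase genes, 32 were tested, and edgeR called 4 higher and 7 lower, where 13.2% of all genes were called higher and 4.99% lower. The median log2 fold change was -0.15, against -0.03 for all genes tested. Those called higher included the lipopolysaccharide co-receptor Cd14 (1.83), the interleukin 1 receptor antagonist Il1rn (1.45) and von Willebrand factor, Vwf (0.90). The call of Vwf was lost without high-fat diet replicate 3 (0.58). The fibrinogen chains Fga, Fgb and Fgg, major clotting proteins of the acute phase, were called lower with log2 fold changes of -0.56, -0.65 and -0.64. Fga was at 3399 CPM on the control diet and 2311 on the high-fat diet as a mean of 12 libraries. Hamp, which encodes the iron hormone hepcidin, was called lower at -1.93, and in high-fat diet replicate 3 it was at 1.71 CPM, where the diet's median was 273. The serpins Serpina3k, Serpina1a and Serpina1b were also called lower, at -1.91, -0.79 and -0.67. C3, the complement protein with the most counts in the list, was at -0.16 and not called. With library totals alone, 4 genes of the list were called higher and 2 lower, and without high-fat diet replicate 3, 3 and 8.

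Of 15 negative acute-phase genes, 9 were called lower and 0 higher by edgeR, against 4.99% and 13.2% of all genes. The median log2 fold change of the list was -0.57. At an unadjusted p under 0.05, 11 were below 0 and 1 above, and DESeq2 called 1 gene higher and limma-voom 0. Among them were Alb (-0.72), Ttr (-0.62), Apoa1 (-0.74), Rbp4 (-0.65) and Apom (-1.20). Trf, the iron carrier transferrin, was at 0.22 and was not called. With library totals alone 1 gene of the list was called lower and 1 higher, and without high-fat diet replicate 3, 10 lower and 0 higher. Beside this, 6 of 10 hepatocyte markers were called lower, 3 with library totals and 7 without high-fat diet replicate 3, and edgeR, DESeq2 and limma-voom had 0 of them above 0 at an unadjusted p under 0.05. The part of the hepatocyte share in the levels of the 10 genes was not tested. Alb and Ttr stand in both lists.

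Of 20 cytokines and receptors tested, 9 were called higher and 2 lower, against 13.2% and 4.99% of all genes, and the list median was 0.26. Those higher included the ligands Lif (2.41), Osm (2.16), Tnf (2.09), Il1b (1.23) and Il1a (0.92), the decoy receptor Il1r2 (2.93) and the oncostatin receptor Osmr (0.90). Osm, Il1r2, Lif and Tnf had at most 44 counts in any library. Il6 itself, named after its values were seen, had at most 2 counts in any library and was not tested, so a difference was not detectable at this depth. The receptor of Lif, Lifr (-1.44), and the co-receptor Il1rap (-0.82) were called lower, and the shared receptor Il6st was at -0.15 and not called. Of 23 signalling and transcription factor genes, 3 were called higher and 0 lower, where 13.2% of all genes were called higher. The 3 were Relb (1.94), Nfkb2 (1.16) and the feedback inhibitor Socs1 (1.07), and the list median was 0.03. Stat3 was at -0.15, Hnf4a at -0.40 and Cebpa at -0.40, and none of them was called. At an unadjusted p under 0.05, edgeR, DESeq2 and limma-voom each had 5 of these 23 genes below 0 and 7 above. In edgeR 23.7% of all genes were below 0 at that level and 24.1% above. With library totals alone, 11 cytokines and receptors were called higher and 2 lower, and 7 signalling and transcription factor genes higher and 0 lower. Of all genes, 21.4% were called higher with those totals. Both lists had the same counts without high-fat diet replicate 3 as with it.

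Among 24 partners and clearance receptors of these proteins, 7 were called higher and 1 lower, against 13.2% and 4.99% of all genes. The counts were the same without high-fat diet replicate 3. Library totals alone gave 11 and 1, where 21.4% of all genes were called higher. Cd163, the macrophage receptor that takes up haptoglobin with its hemoglobin, was called lower, at -2.51, from 17.1 to 3.03 CPM as means of 12 libraries. Hmox1, which degrades heme, was called higher at 1.28, and so were the lipocalin 2 receptor Slc22a17 (0.96), Tlr2 (1.65) and Cd36 (1.05), both of which bind serum amyloid A, and the Fc receptors Fcgr1 (1.79), Fcgr3 (1.50) and Fcer1g (1.45), of which the Fcgr receptors bind pentraxins. Lrp1, which takes up hemopexin with heme, was at -0.21 and not called.

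**Figure D5:**
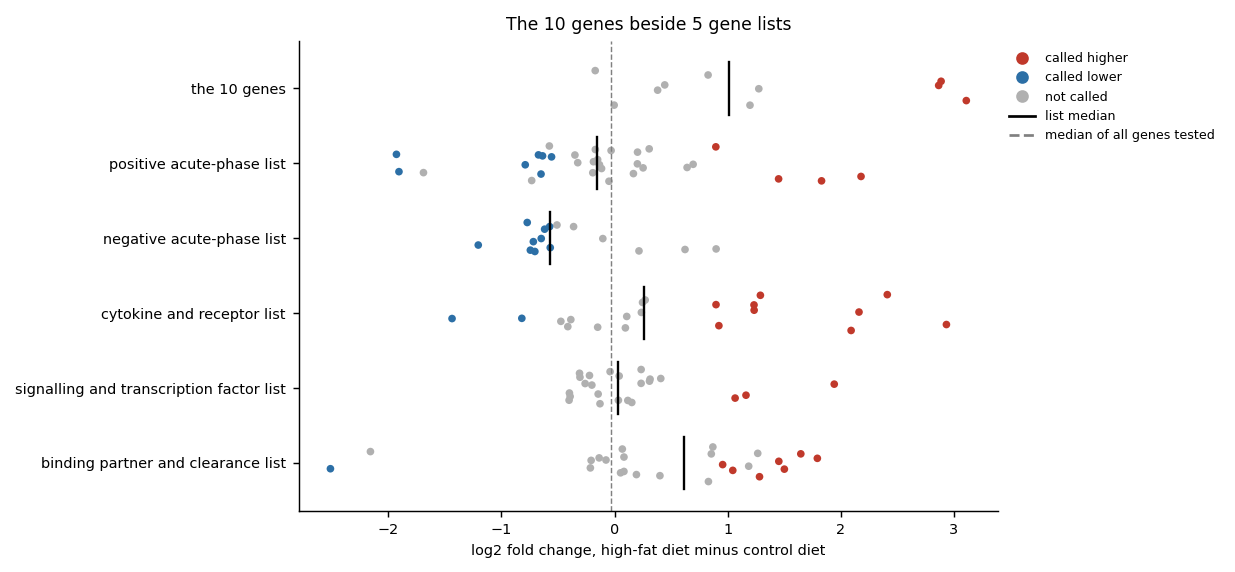
Log2 fold changes (high-fat diet minus control diet) of the 10 genes and of the tested genes in 5 lists, 1 point per gene. Red points were called higher, blue points lower and grey points were not called; black lines are list medians and the dashed line is the median of all genes tested. The positive acute-phase list has 4 red and 7 blue points, while 3 of the 10 genes are red and none is blue.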

How the data were processed

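Whole-liver poly(A) RNA was sequenced in 12 high-fat diet and 12 control diet libraries. What the authors deposited is a single table of raw counts per Ensembl gene, whole numbers that were not normalized. The submitters' processing notes name bcl2fastq, STAR 2.7.3a and mm10. The counting program and annotation for mouse are not given in the sources used here. Symbols, gene models and transcripts came from GENCODE M21 (GRCm38) and matched 51745 of 56205 IDs, and the 4460 IDs without a symbol held 0.0723% of the counts. Promoters came from RefSeq (GRCm38.p6).

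Counts were tested in edgeR 4.0.16 (R 4.3.3) with TMM scaling and the quasi-likelihood test, with diet as the only term because the labels give no sex per library, and with Benjamini-Hochberg adjustment over 17913 genes. Each standard error is the size of the log2 fold change over the square root of F. On simulated counts for these genes the test recovered 86.5% of 200 genes changed by 1 on the log2 scale, and 4.62% of unchanged genes had p under 0.05. DESeq2 1.42.0, limma-voom (limma 3.58.1), sva 3.50.0, other scalings, filters, thresholds and left-out libraries were alternatives. No 2 libraries of a diet were alike within sampling noise (lowest chi-square per degree of freedom 9.48). The labels do not say that each library is a separate animal, and p-values measure the spread between libraries. Intervals cover the spread between libraries under the fit.

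The 10 genes were named by symbol, genes of the fixed lists were named where called or among the 3 with the highest mean CPM, and 5 nearest genes were named for Saa3 and Lcn2. One listed gene that was called is not reported here by name. The members, lists and library sets were chosen with earlier results of these data known. The fits of the Xist sets without high-fat diet replicate 3 were added after seeing the data.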

Additional observations from a re-analysis of the deposited data

Results flagged for a closer look

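Within each diet and set of 6 libraries, a library was singled out where its gap to the nearest other library exceeded Dixon's 95% critical value. Of 40 such groups, 9 were singled out. The nominal rate of the rule, about 1 in 20, holds for independent groups of normally distributed values. The share of all genes singled out by it is not given. High-fat diet replicate 3 was the highest library in 8 of them, with 998 CPM of Saa1, 831 CPM of Saa2, 17.6 CPM of Saa3, 1739 CPM of Orm1, 304 CPM of Orm2, 798 CPM of Lcn2, 12802 CPM of Hpx and 499 CPM of Apcs. Orm3 and Hp were also highest there, at 33.8 and 8220 CPM, but not far enough from the other libraries. High-fat diet replicate 9 was the lowest library of its group for Orm1, at 377 CPM, a level lowered by its TMM factor of 1.34. The genes are not independent of each other, so the 8 values of replicate 3 describe 1 library. Neutrophil and erythroid markers were at their highest in that library as well, and hepatocyte markers at the highest of its diet. The part of these cells in the values was not tested.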

How the results depend on the processing

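Orm2, Orm3 and Lcn2 stayed called higher under every alternative that tested them apart from their paralogs, with log2 fold changes of Lcn2 from 2.71 to 3.36 outside the Xist sets, 1.67 in the set above 1000 counts without high-fat diet replicate 3 and 3.48 in the set below. Summing Orm1, Orm2 and Orm3 gave 0.18 for the sum. The number of the 10 genes called higher, 3 of 10, became 6 with limma-voom (13% of all genes), 6 with library totals (21.4%), 6 with the replicate block (11.5%), 5 with the Xist set above 1000 counts (2.91%), 6 in that set without high-fat diet replicate 3 (3.85%), and 5 when an adjusted p up to 0.05 was enough for a call (20.7%). With 1 library left out it ran from 3 to 6, and the number called lower from 0 to 1, the 1 being Apcs without high-fat diet replicate 3. That number was also 1 in the Xist set above 1000 counts without high-fat diet replicate 3. With 1 surrogate variable, Saa1 (1.67, adjusted p = 0.00685) was called higher beside Orm2, Orm3 and Lcn2. With the library set as a covariate, Saa1 and Saa2 were both at 1.63 and missed a call (adjusted p = 0.0164 and 0.0316).

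Across all genes, 2372 were called higher and 894 lower. Library totals gave 3827 and 226, and at least 10 counts in every library left 1226 higher, since fewer genes were tested. The Xist set above 1000 counts gave 525 and 162, the same without high-fat diet replicate 3 gave 686 and 260, and the set below gave 1430 lower, from 12 or fewer libraries. Calls by an adjusted p up to 0.05 alone numbered 3709 and 3388, and 216 lower genes had a change beyond 1 on the log2 scale. With 1 library left out, 2137 to 2464 were higher and 745 to 995 lower.

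Orm1, at -0.0034, was above 0 with DESeq2 (0.0024), library totals (0.32), DESeq2 size factors (0.0024), no filter (0.013), edgeR's default filter (0.0025), at least 10 counts in every library (0.051), 1 surrogate variable (0.032) and the Xist set above 1000 counts (0.42), and ran from -0.25 to 0.18 with 1 library left out. Apcs was at 0.046 with library totals and 0.077 in the Xist set above 1000 counts. Among the interactions with the library set, limma-voom changed the sign of Saa3 (0.25), Orm2 (0.18) and Orm3 (-0.27), and leaving out high-fat diet replicate 3 that of Orm2 (0.69), Hpx (0.021) and Apcs (0.13), and none of these was called. The cause of these changes was not tested.

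The replicate numbers, shared by both diets, were not taken to pair the libraries. Deviations from the diet means correlated at -0.09 for number 9 and up to 0.60 for the others, and 2 of 12 libraries correlated best with their own number. With the replicate block Saa1 (1.61), Saa2 (1.70) and Saa3 (1.07) were called.

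At this depth the levels of Saa3 and Orm3 rest on few counts, at most 331 and 634 in any library.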
